A study of Mus musculus with 20 samples.

Results

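The 7 genes described here encode proteins that bind 3′ untranslated regions (3′ UTRs) and set how long an mRNA lasts or how well it is translated. They were chosen by name: Zfp36, Zfp36l1 and Zfp36l2 (the tristetraprolin family), Elavl1 (HuR), Pum2 (a Pumilio protein), and Rc3h1 and Rc3h2 (Roquin-1 and Roquin-2). Each had 1 row among the 20586 rows of the table of 3′ UTR read counts, and all 7 rows passed the filter on low counts that left 11496 rows for the tests.

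ZFP36 proteins bind AU-rich elements through paired zinc fingers and bring the CCR4-NOT deadenylase to the mRNA, so that its poly(A) tail is shortened and it decays. HuR binds AU- and U-rich stretches and is known mainly for stabilising mRNAs, Pumilio proteins repress mRNAs that carry Pumilio recognition elements, and Roquins bind stem-loops in 3′ UTRs and promote decay. In T cells the ZFP36 and Roquin families are known to restrain cytokine and costimulatory mRNAs. CPEB4, the protein that was immunoprecipitated, binds cytoplasmic polyadenylation elements, which are also in 3′ UTRs.

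RNA immunoprecipitation and sequencing (RIP-seq) was done on CD8 T cells bead-purified from spleen and lymph nodes of C57BL/6 mice, either Cpeb4 knockout (KO) or wild type (WT). All cells were activated in culture for 48 h in the presence of IL-2 (20 ng/ml) and of antibodies to CD3 and CD28 (both at 1 μg/ml). The groups are KO IP and WT IP, precipitated with a homemade anti-CPEB4 antibody and not poly(A) purified, and KO input and WT input, which were poly(A) purified. The labels give neither the KO allele nor whether libraries came from separate animals or pools, so the p-values reflect no more than the spread among these libraries, and that spread may be technical.

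Of 20 sequencing runs of 12 libraries, 9 runs of 6 libraries could be used, because in the other 11 columns the values do not belong to the row names. Where neighbouring rows share a UTR start, 25 of 49 such pairs held identical values in all of the first 9 columns, against 0 of 60 pairs in the last 11 columns. The runs used were KO IP D1 (batches 2 and 3), WT IP D1 (batches 2 and 3), KO input D1 and RIP8 (batch 2 each), WT input D1 (batch 2) and WT input RIP8 (batches 1 and 2). D1 and RIP8 are the experiment names in the titles, and batch is the labels' sequencing batch. Each IP group thus has 1 library, and each input group has 2.

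A single row, in the Lars2 gene, held 34.8 to 50.1% of the counts in 5 runs and 1.16 to 5.40% in the other 4. The first 5 are called Lars2-rich here: both KO input runs, WT input D1, WT input RIP8 batch 1 and WT IP D1 batch 2. The 4 Lars2-poor runs were both KO IP runs, WT IP D1 batch 3 and WT input RIP8 batch 2. Without the Lars2 row, totals were 192134 to 317395 counts in the Lars2-rich runs and 2464476 to 4085902 in the Lars2-poor runs. Levels below are CPM, the counts scaled to 1000000 of that reduced total. Counts are per UTR and not per length, so levels are not compared between genes.

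Labels and counts did not always go together. The runs labelled KO input D1, WT input D1 and WT IP D1 batch 2 are of 3 groups. They differed from each other by little more than sampling noise, with a chi-square per degree of freedom of 1.05 to 1.12. Each such value covers the rows with at least 20 counts in its pair of runs. The 2 runs of the WT IP D1 library differed far more, at 58.7. Those of KO IP D1 and WT input RIP8 were at 35.0 and 31.7. This measure rises with depth, and the first 3 runs were all shallow. By Spearman correlation those 3 were at 0.87 to 0.88, the WT IP D1 runs at 0.43 and the WT input RIP8 runs at 0.71. The KO IP D1 runs were at 0.91, so by this measure they were not further apart than the first 3. KO IP D1 batch 3 and WT input RIP8 batch 2, of different groups, had a chi-square per degree of freedom of 3.09 and a Spearman correlation of 0.99. Each was thus closer to the other than to the second run of its own library. Cpeb4 itself had 16.2 and 47.1 CPM in the KO IP runs, 123 and 12.0 CPM in the WT IP runs, 110.0 and 126 CPM in the KO input runs and 34.3 to 195 CPM in the WT input runs. The part of the gene that was deleted is not given, so this UTR does not check the KO label, and every group name below is that of the library so labelled.

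Transcripts of CD8 T cells were present in all 9 runs. The 7 CD8 T cell markers (Cd8a, Cd8b1, Cd3d, Cd3e, Cd3g, Thy1 and Gzmb) summed to 7206 to 9180 CPM in KO IP, 2418 to 4252 CPM in WT IP, 2645 to 2799 CPM in KO input and 2368 to 9552 CPM in WT input runs. Of the other lists the CD4 T cell markers reached the highest sum in any run. The 2 of 3 with a row (Foxp3 and Zbtb7b) summed to 58.8 to 115 CPM in KO IP, 84.9 to 138 CPM in WT IP, 94.6 to 149.9 CPM in KO input and 60.2 to 167 CPM in WT input runs. The myeloid markers summed to 82.8 to 99.3 CPM in KO IP, above the lower CD4 sum there. The 5 B cell markers summed to at most 46.9 CPM, 4 myeloid markers to at most 102 CPM, 3 NK cell markers to at most 10.0 CPM and 3 stromal markers to at most 75.6 CPM in any run. Pax5, Adgre1, Ncr1, Col1a2 and the erythroid genes had at most 2 counts in any run. The part of these marker levels in the results below was not tested. In RNA from many cells, fewer cells of a type and less RNA per cell cannot be told apart.

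Zfp36, which encodes tristetraprolin, has its counted UTR on chromosome 7 from position 28376784 (GRCm38, which is mm10), the lower end of the RefSeq gene. It had 81.6 and 82.4 CPM in KO IP batches 2 and 3 and 83.9 and 45.4 CPM in WT IP batches 2 and 3. It had 169.9 and 137 CPM in KO input D1 and RIP8, 135 CPM in WT input D1, and 148 and 89.1 CPM in WT input RIP8 batches 1 and 2. All 5 input runs were above the 4 IP runs, but the lowest of them, WT input RIP8 batch 2, was within the counting error of WT IP batch 2, whose 17 counts give a 95% Poisson interval of 48.9 to 134 CPM. With the Lars2 row kept in the totals, the input and IP runs overlapped. For orders of runs described here and for the genes below, the share of all rows with the same order was not computed. Poisson intervals, here and in the plot of levels by run, cover counting error only.

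Zfp36l1 (UTR start 80107760, chromosome 12), which encodes a close relative with the same zinc fingers, was the steadiest of the 7. It had 263 and 234 CPM in KO IP batches 2 and 3 and 262 and 171 CPM in WT IP batches 2 and 3. It had 289.9 and 280.2 CPM in KO input D1 and RIP8, 234 CPM in WT input D1, and 277 and 195 CPM in WT input RIP8 batches 1 and 2. Its highest run exceeded its lowest by 1.69-fold, against 2.29-fold to 8.72-fold for the other 6 genes. The 2 KO input runs were above the other 7, and the runs of KO IP, WT IP and WT input overlapped. With TMM scaling or the Lars2 row kept, KO IP batch 2 was the highest run in place of KO input, and the spread was 1.54-fold and 2.08-fold.

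Zfp36l2 (UTR start 84183931, chromosome 17), the other close relative, had 212 and 358 CPM in KO IP batches 2 and 3 and 474 and 113 CPM in WT IP batches 2 and 3. It had 429.9 and 409.9 CPM in KO input D1 and RIP8, 552 CPM in WT input D1, and 551 and 309 CPM in WT input RIP8 batches 1 and 2. The 5 Lars2-rich runs, at 409.9 to 552 CPM, were all above the 4 Lars2-poor runs, at 113 to 358 CPM, but the sets overlapped with TMM scaling and with the Lars2 row kept. The WT IP runs were thus both the lowest and among the higher values, although they are runs of the same library.

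Elavl1 (UTR start 4284782, chromosome 8), which encodes HuR, had 115 and 245 CPM in KO IP batches 2 and 3 and 341 and 111 CPM in WT IP batches 2 and 3. It had 255 and 186 CPM in KO input D1 and RIP8, 323 CPM in WT input D1, and 233 and 238 CPM in WT input RIP8 batches 1 and 2. A pair of IP runs with different labels, KO IP batch 2 and WT IP batch 3, were low and had overlapping intervals (104 to 126 and 101 to 122 CPM). The Lars2-rich and Lars2-poor runs overlapped.

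Pum2 (UTR start 8749721, chromosome 12), a translational repressor, ran the other way in the IP runs. It had 775 and 555 CPM in KO IP batches 2 and 3 and 395 and 893 CPM in WT IP batches 2 and 3. It had 389.9 and 683 CPM in KO input D1 and RIP8, 463 CPM in WT input D1, and 715 and 479 CPM in WT input RIP8 batches 1 and 2. The highest values were those of the KO IP batch 2 and WT IP batch 3 runs, in which Elavl1 was lowest. Among the Lars2-rich runs the 2 labelled RIP8 were higher than the 3 labelled D1, with intervals that did not overlap (591 to 815 against 308 to 570 CPM).

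Rc3h1 (UTR start 160967798, chromosome 1), which encodes Roquin-1, had 117 and 104 CPM in KO IP batches 2 and 3 and 548 and 75.7 CPM in WT IP batches 2 and 3. It had 575 and 546 CPM in KO input D1 and RIP8, 505 CPM in WT input D1, and 469 and 93.7 CPM in WT input RIP8 batches 1 and 2. The 9 runs fell into separate sets, 469 to 575 CPM in the Lars2-rich runs and 75.7 to 117 CPM in the Lars2-poor runs. Within each set the highest run exceeded the lowest by 1.22-fold and 1.55-fold.

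Rc3h2 (UTR start 37370069, chromosome 2), which encodes the paralogue Roquin-2, did the same. It had 70.6 and 93.3 CPM in KO IP batches 2 and 3 and 444 and 53.1 CPM in WT IP batches 2 and 3. It had 335 and 409.9 CPM in KO input D1 and RIP8, 416 CPM in WT input D1, and 463 and 84.9 CPM in WT input RIP8 batches 1 and 2. The Lars2-rich runs held 335 to 463 CPM and the Lars2-poor runs 53.1 to 93.3 CPM. The sets stayed apart for both Roquin genes with TMM scaling and with the Lars2 row kept. Such a split was not particular to them. Tia1, another RNA-binding protein gene, had 264.9 to 340 CPM in the Lars2-rich runs and 119 to 138 CPM in the Lars2-poor runs. Ybx1 split the other way, at 39.5 to 148 CPM and 661 to 1238 CPM, and for Mapk14 the sets overlapped.

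**Figure D1:**
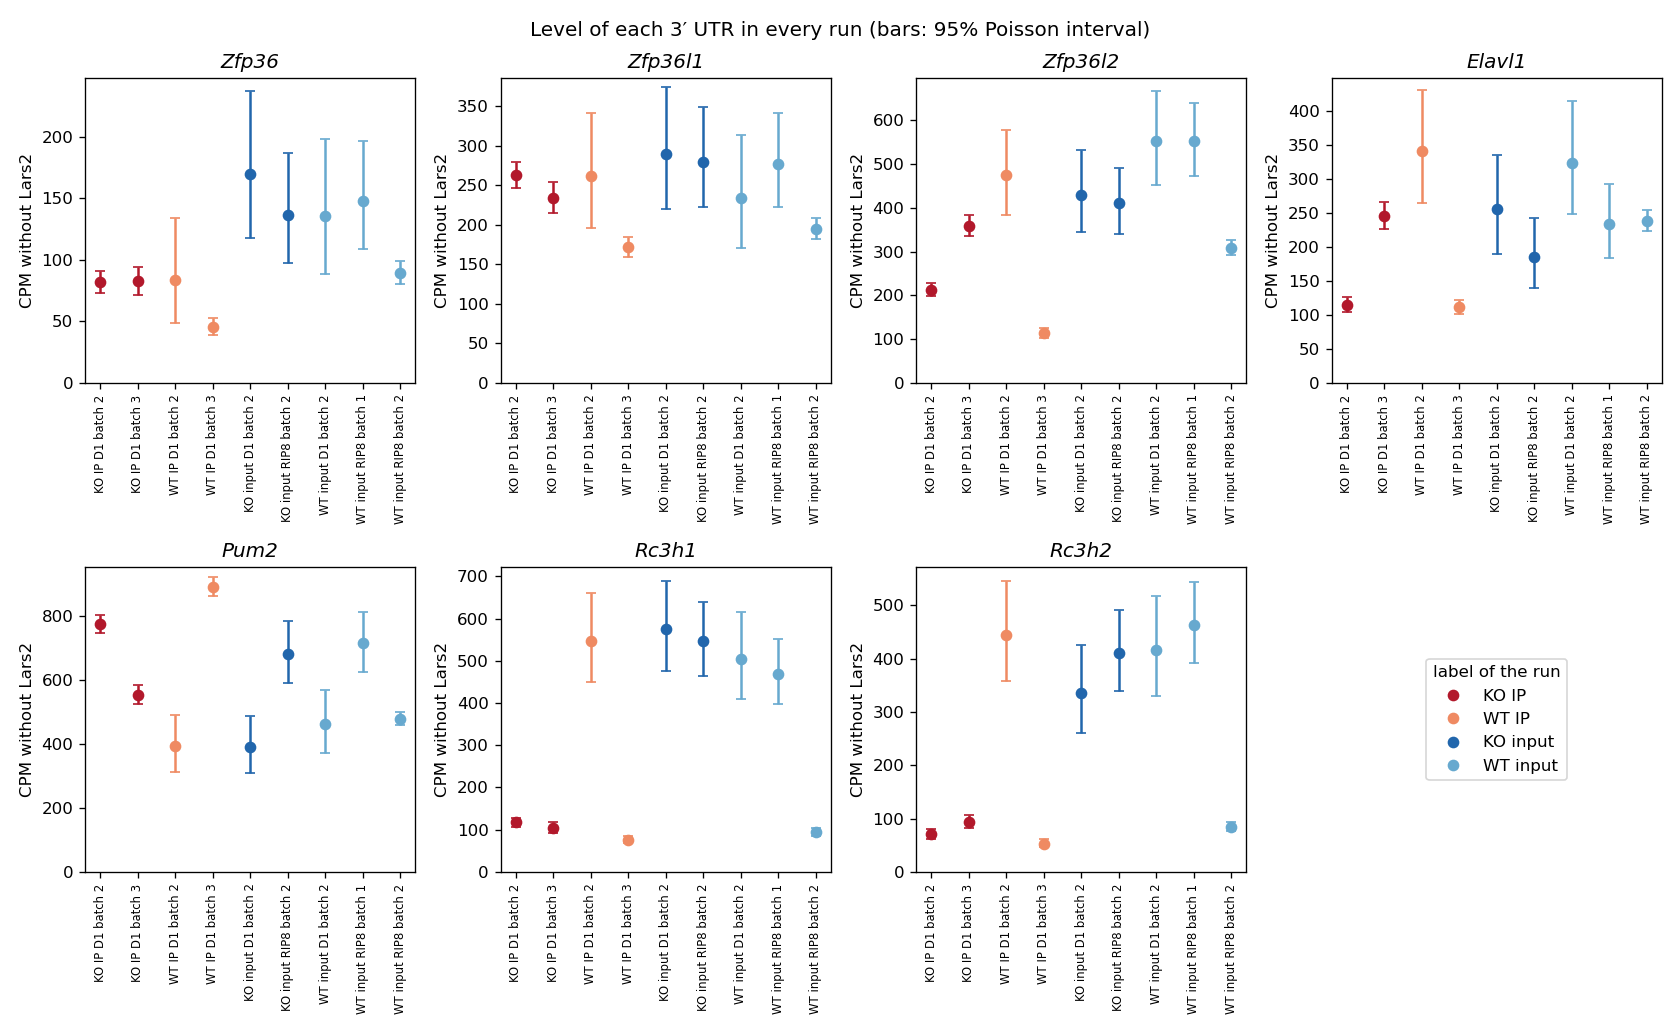
Level of the 3′ UTR of each of the 7 genes (y axis, CPM without the Lars2 row) in each of the 9 runs (x axis), coloured by label, with 95% Poisson intervals as bars. Rc3h1 lies at 469 to 575 CPM in 5 runs and at 75.7 to 117 CPM in 4, while Zfp36l1 varies by 1.69-fold in all.

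The split of the Roquin genes ran within libraries as well as between them. In the WT IP D1 library the batch 2 run was 7.24-fold above the batch 3 run for Rc3h1 (95% exact interval of the count ratio 5.77 to 9.03) and 8.36-fold for Rc3h2 (6.46 to 10.7). In the WT input RIP8 library the batch 1 run was 5.01-fold above the batch 2 run for Rc3h1 (4.12 to 6.07) and 5.45-fold for Rc3h2 (4.47 to 6.63). The size of these ratios depended on the scaling. With TMM they were 4.16 and 4.80 in the WT IP library and 4.33 and 4.72 in the WT input library for Rc3h1 and Rc3h2, and with the Lars2 row kept 3.77 and 4.35, and 3.34 and 3.64. All of these intervals lay above 1. In the KO IP D1 library, whose runs were both Lars2-poor, the batch 2 over batch 3 ratio was 1.13 for Rc3h1 (0.964 to 1.32) and 0.757 for Rc3h2 (0.632 to 0.906).

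Between the WT IP D1 runs, batch 2 over batch 3, Zfp36l2 had a ratio of 4.18 (3.32 to 5.22), Elavl1 one of 3.06 (2.34 to 3.95) and Pum2 one of 0.442 (0.350 to 0.552). In the KO IP D1 library these genes differed by more than the Roquin genes, with batch 2 over batch 3 ratios of 0.593 for Zfp36l2 (0.539 to 0.653), 0.468 for Elavl1 (0.413 to 0.530) and 1.40 for Pum2 (1.31 to 1.49). Of the 7 intervals for the WT IP runs 0 held 1, and 2 did with TMM or with the Lars2 row kept, those of Zfp36 (1.85, and 1.06 with TMM) and Zfp36l1 (1.53, and 0.877 with TMM). For KO input D1 over WT input D1, 7 of 7 intervals held 1, and 6 with the Lars2 row kept. For WT IP D1 batch 2 over WT input D1, 7 of 7 held 1 under each scaling. For KO input RIP8 over WT input RIP8 batch 1, both Lars2-rich, 6 of 7 held 1, and Zfp36l2 was the exception at 0.743 (0.583 to 0.945). The pairs of Lars2-rich runs had 17 to 227 counts per gene and run, so their intervals were wide and hold 1 more easily. The share of all rows whose interval held 1 was not computed. These are ratios between single runs, not tests of a condition.

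**Figure D2:**
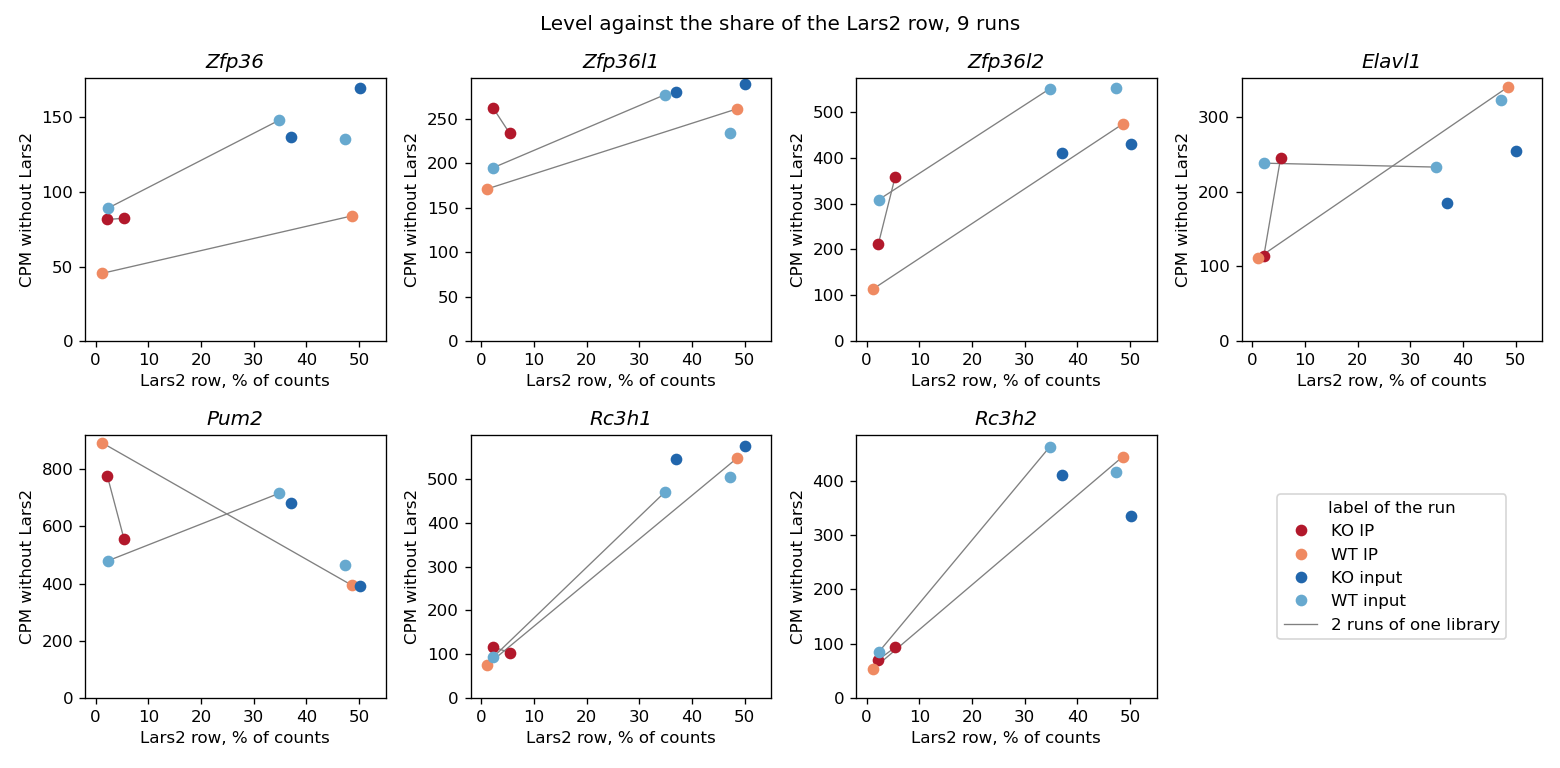
Level of each gene (y axis, CPM without the Lars2 row) against the share of the run's counts in the Lars2 row (x axis, %), for 9 runs coloured by label, with grey lines joining 2 runs of a library. Rc3h1 and Rc3h2 are at 335 CPM or more wherever the share is 34.8% or more and at most 117 CPM wherever it is 5.40% or less.

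Shares within a pair of genes do not depend on the run total. Of the counts of Rc3h1 and Rc3h2 together, Rc3h1 took 62.4 and 52.7% in KO IP batches 2 and 3, 55.2 and 58.8% in WT IP batches 2 and 3, 63.2 and 57.1% in KO input D1 and RIP8, and 50.3 to 54.8% in the 3 WT input runs. So the Roquin genes kept a share of 50.3 to 63.2% over runs in which Rc3h1 differed by up to 7.60-fold and Rc3h2 by up to 8.72-fold. Both KO input shares were above the 3 WT input shares, but the 95% Wilson interval of KO input RIP8 (51.2 to 62.9%) overlapped all of theirs.

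Of the counts of Zfp36l2 and Zfp36l1 together, Zfp36l2 took 44.7 and 60.5% in KO IP batches 2 and 3, and 64.4 and 39.8% in WT IP batches 2 and 3. It took 59.7 and 59.4% in KO input D1 and RIP8, 70.2% in WT input D1, and 66.5 and 61.3% in WT input RIP8 batches 1 and 2. The KO IP batch 2 and WT IP batch 3 runs stood apart at 44.7 and 39.8%, and the other 7 runs lay at 59.4% or above. The same runs had the highest share of Pum2 in the counts of Pum2 and Elavl1, 87.1% in KO IP batch 2 and 88.9% in WT IP batch 3, against 53.7 to 78.6% elsewhere.

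**Figure D3:**
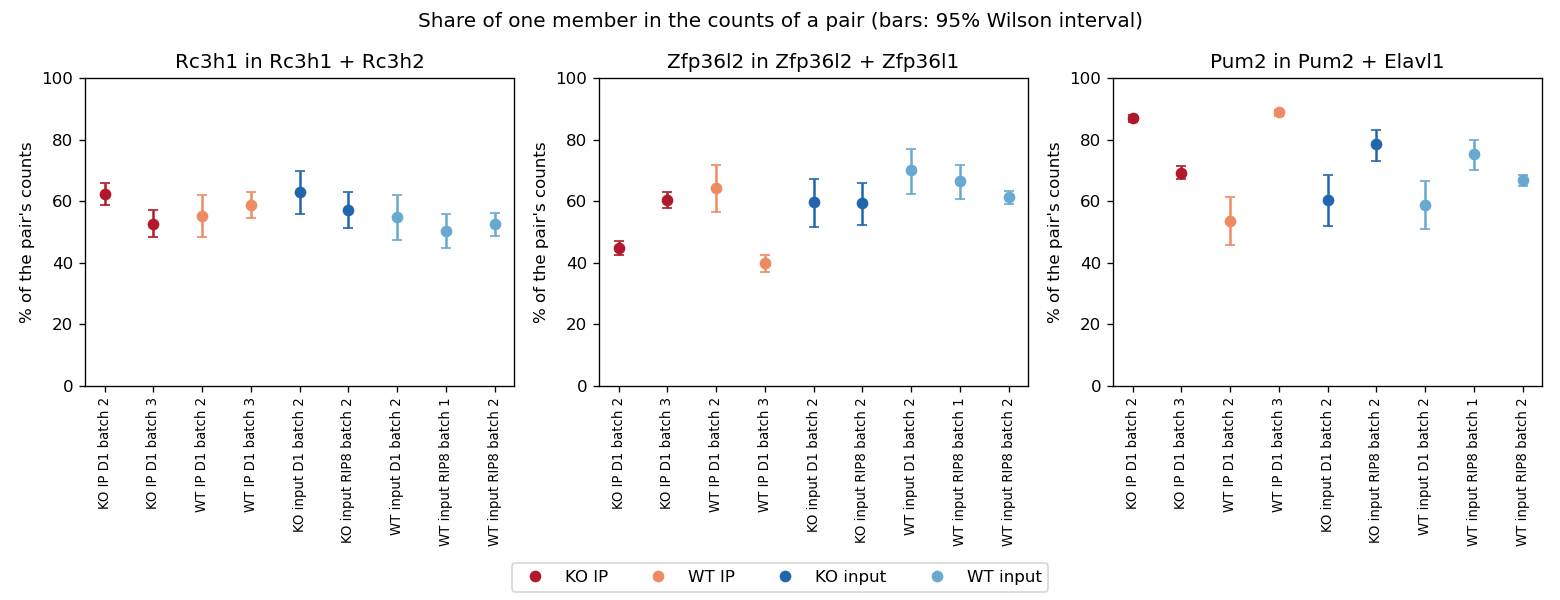
Share of the first gene in the summed counts of a pair (y axis, %) in each of the 9 runs (x axis), coloured by label, with 95% Wilson intervals as bars. Rc3h1 stays between 50.3 and 63.2% of its pair, while Zfp36l2 falls to 44.7% in KO IP batch 2 and 39.8% in WT IP batch 3.

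Across the 9 runs the levels of Rc3h1 and Rc3h2, as log2(CPM + 1), had a Pearson correlation of 0.98, the highest of the 21 pairs of the 7 genes. Pum2 had negative correlations with all the other 6, from −0.29 with Zfp36l1 to −0.86 with Elavl1. Among 5091 named rows, the patterns most like Rc3h1 were those of Gpr174 (0.997) and Map4 (0.996), and those most like Rc3h2 were Slc18a2 (0.996) and Sfpq (0.995). The nearest to Zfp36l2 were Ip6k1 (0.990) and Eya3 (0.988), to Zfp36 Cdon (0.974) and Rab11fip3 (0.965), and to Pum2 Strn3 (0.962) and Zfr (0.921). Elavl1 was most like Pde4d and Spin1 (0.937 each), and Zfp36l1 most like Ssh2 (0.910) and H2-Q4 (0.908). These are descriptions over 9 points that share libraries, depth and Lars2 share.

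The question of the design is which mRNAs the anti-CPEB4 IP holds in WT cells beyond what it holds in KO cells. Runs were summed per library, fitted across all rows with edgeR's quasi-likelihood test and adjusted by Benjamini-Hochberg. None of the 7 genes passed an adjusted p of 0.05 in any of the 5 comparisons, and neither did any other row, so that 0.0% of the 11496 rows was called in each. DESeq2 called none of the 7 either, but it did not give every gene an adjusted p. In KO input against WT input, for example, it gave none for Zfp36, Zfp36l1, Elavl1 and Rc3h2. In WT IP against WT input it gave none for Zfp36. Log2 differences are given with their standard error (SE), which edgeR's F statistic implies.

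Between IPs, KO IP had 1 library against 1 of WT IP, each assumed to vary like the inputs. Zfp36 had 81.9 CPM in KO IP and 47.2 CPM in WT IP (log2 difference 0.47 ± 0.87), Zfp36l1 252 and 176 CPM (0.19 ± 0.90), and Zfp36l2 269 and 131 CPM (0.72 ± 0.94). Elavl1 had 166 CPM in KO IP and 122 CPM in WT IP (0.11 ± 0.90), and Pum2 689 and 869 CPM (−0.66 ± 1.02). Rc3h1 had 112 CPM in KO IP and 98.5 CPM in WT IP (−0.14 ± 1.04), and Rc3h2 79.5 and 72.0 CPM (−0.18 ± 1.00). The adjusted p was 0.999769 for each of them by edgeR, whose count at an unadjusted p under 0.05 was 33 rows, while DESeq2 called 0 rows with 31 under 0.05. The log2 values of both Roquin genes turned above 0 without TMM factors (0.18 and 0.14), and that of Elavl1 turned below 0 by DESeq2 and without WT input D1 (−0.055 and −0.028).

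These values changed with the runs chosen. In the batch 2 runs alone, where KO IP is Lars2-poor and WT IP Lars2-rich, Rc3h1 had a log2 value of −1.92 ± 1.19 and Rc3h2 one of −2.35 ± 1.16, Zfp36l2 and Elavl1 turned to −0.85 and −1.27, and Pum2 to 1.28. With the batch 3 runs of both IPs, which are Lars2-poor, and WT input RIP8 batch 1 in the fit, Rc3h1 had −0.08 ± 0.46 and Rc3h2 0.28 ± 0.48, Zfp36l2 had 1.12 ± 0.46 and Pum2 −1.22 ± 0.54. None of the 7 genes passed by edgeR in either fit (adjusted p of 0.524 or more, and 0.133 or more). In the second fit 532 of 7933 rows, 6.71%, were called, and in the first 0 of 7234, with 571 at an unadjusted p under 0.05. Without WT input D1 edgeR called 86 of 11618 rows (0.74%) and without WT input RIP8 22 of 7658 rows (0.287%), none of the 7 genes among them.

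Between inputs, 2 KO libraries were set against 2 WT libraries. Rc3h1 averaged 561 ± 20.0 CPM in KO input and 313 ± 272 CPM in WT input (SD, n = 2 each), with a log2 difference of 0.87 ± 0.75 and an adjusted p of 0.996 by edgeR. Rc3h2 averaged 372 ± 53.0 CPM in KO input and 264 ± 215 CPM in WT input (0.53 ± 0.72). The wide spread in WT input is that of D1, which is Lars2-rich, and RIP8, whose sum is mostly its Lars2-poor run. In the Lars2-rich runs alone the log2 differences were 0.19 ± 0.31 for Rc3h1 and −0.25 ± 0.33 for Rc3h2. Without WT input D1, which leaves the mostly Lars2-poor RIP8 sum as WT input, edgeR called 2363 of 11618 rows (20.3%), Rc3h1 (2.04, adjusted p = 0.00237) and Rc3h2 (1.56, 0.0225) among them. Without WT input RIP8 it called 0 rows, with 159 of 7658 at an unadjusted p under 0.05, and the values were 0.18 and −0.13.

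For the other genes the input groups were closer. Zfp36 averaged 153 ± 23.6 CPM in KO input and 114 ± 29.7 CPM in WT input (log2 difference 0.38 ± 0.64), and Zfp36l1 285 ± 6.83 and 218 ± 23.3 CPM (0.33 ± 0.65). Zfp36l2 averaged 419.9 ± 14.1 CPM in KO input and 439 ± 159 CPM in WT input (−0.09 ± 0.67), Elavl1 220.3 ± 49.0 and 280.3 ± 59.9 CPM (−0.40 ± 0.65), and Pum2 536 ± 207 and 479.8 ± 23.5 CPM (0.11 ± 0.73). None passed (adjusted p of 0.996 or more by edgeR, with 600 rows at an unadjusted p under 0.05, while DESeq2 called 24 rows). For Zfp36, Zfp36l1 and Rc3h1 both KO input libraries were above both WT input libraries, 3 of 7, where 13.2% of all rows tested did the same. No gene had both KO input libraries below, against 14.8% of the rows. With WT input RIP8 batch 1 in place of the sum, the Zfp36 groups overlapped. With the Lars2 row kept, the groups overlapped for both Zfp36 and Zfp36l1, as both WT input RIP8 runs were above both KO input runs. For Zfp36 these were 96.6 and 87.0 CPM against 84.8 and 86.0 CPM. For Zfp36l1 they were 181 and 191 CPM against 145 and 176 CPM. The share of all rows was not computed with that scaling.

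Setting IP against input asks what the precipitate holds relative to the cell's mRNA. Only the inputs were poly(A) purified, so in each such difference the precipitation and that purification cannot be told apart. WT IP against WT input gave log2 differences of 1.38 ± 0.86 for Pum2, −1.25 ± 0.93 for Rc3h2, −1.18 ± 0.86 for Zfp36l2 and −1.04 ± 0.95 for Rc3h1, with adjusted p values of 0.664 to 0.727 by edgeR. Zfp36 had −0.71 ± 0.78, Elavl1 −0.64 ± 0.80 and Zfp36l1 0.23 ± 0.78, the last of which turned below 0 without TMM factors. The median of all rows was −0.10, 878 rows had an unadjusted p under 0.05, and DESeq2 called 43 rows.

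The WT comparison depended on 1 library and on the runs. Without WT input RIP8, edgeR called 2639 of 7658 rows (34.5%) and Rc3h2 (−1.99, adjusted p = 0.00904), Rc3h1 (−1.82, 0.0152), Zfp36l2 (−1.54, 0.0398) and Pum2 (1.44, 0.0449) passed. Without WT input D1, in contrast, it called 1178 of 11618 rows (10.1%) but none of the 7, and Rc3h1 turned to 0.23. In the batch 2 runs alone Rc3h1, Rc3h2 and Zfp36l2 turned above 0 (0.88, 0.83 and 0.09) and Pum2 below it (−0.34). In the Lars2-rich runs alone Rc3h1 had 0.16 ± 0.38 and Rc3h2 0.0022 ± 0.41, Zfp36l2 had −0.23 ± 0.39 and Pum2 −0.60 ± 0.50. With the other run of each library, which sets the Lars2-poor WT IP batch 3 run against Lars2-rich inputs, edgeR called 3775 of 7933 rows (47.6%), among them Rc3h2 (−2.38, adjusted p = 0.00235), Rc3h1 (−2.01, 0.00409), Zfp36l2 (−1.61, 0.0105) and Pum2 (1.26, 0.0386).

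KO IP against KO input gave −2.05 ± 1.00 for Rc3h1 and −1.96 ± 0.96 for Rc3h2 (adjusted p = 0.353 and 0.355 by edgeR). The other 5 genes lay between −0.62 ± 0.78 for Zfp36 and 0.61 ± 0.87 for Pum2, around a median of 0.20 over all rows. Without WT input D1 or WT input RIP8, which are not in this comparison but enter its estimate of spread, edgeR called 2976 of 11618 rows (25.6%) and 2696 of 7658 rows (35.2%), and the Roquin genes passed both times (Rc3h1 −2.09 and −2.13, Rc3h2 −1.997 and −2.04, with adjusted p values of 0.00137 to 0.00271). With the other run of each library it called 1770 of 7933 rows (22.3%), and Rc3h1 (−2.29, adjusted p = 0.00625) and Rc3h2 (−1.86, 0.0164) passed. In the fit of all 6 libraries 1723 rows had an unadjusted p under 0.05, and DESeq2 called 196. Both KO IP runs were Lars2-poor and both KO input runs Lars2-rich, and only the inputs were poly(A) purified. The precipitation, that purification and the kind of run thus cannot be told apart here.

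The difference of the IP over input ratio between genotypes, KO minus WT, was −1.01 ± 1.28 for Rc3h1, −0.77 ± 1.26 for Pum2 and −0.71 ± 1.24 for Rc3h2. It was 0.81 ± 1.15 for Zfp36l2, 0.52 ± 1.11 for Elavl1, 0.09 ± 1.08 for Zfp36 and −0.14 ± 1.11 for Zfp36l1. All had an adjusted p of 0.999826 by edgeR, whose fit had 124 rows at an unadjusted p under 0.05, and DESeq2 called 0 rows with 52 under 0.05. The SE of over 1 on the log2 scale means that changes of 2-fold were not detectable in this comparison. Without WT input D1 edgeR called 1175 of 11618 rows (10.1%), Rc3h1 among them (−2.32, adjusted p = 0.0337).

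**Figure D4:**
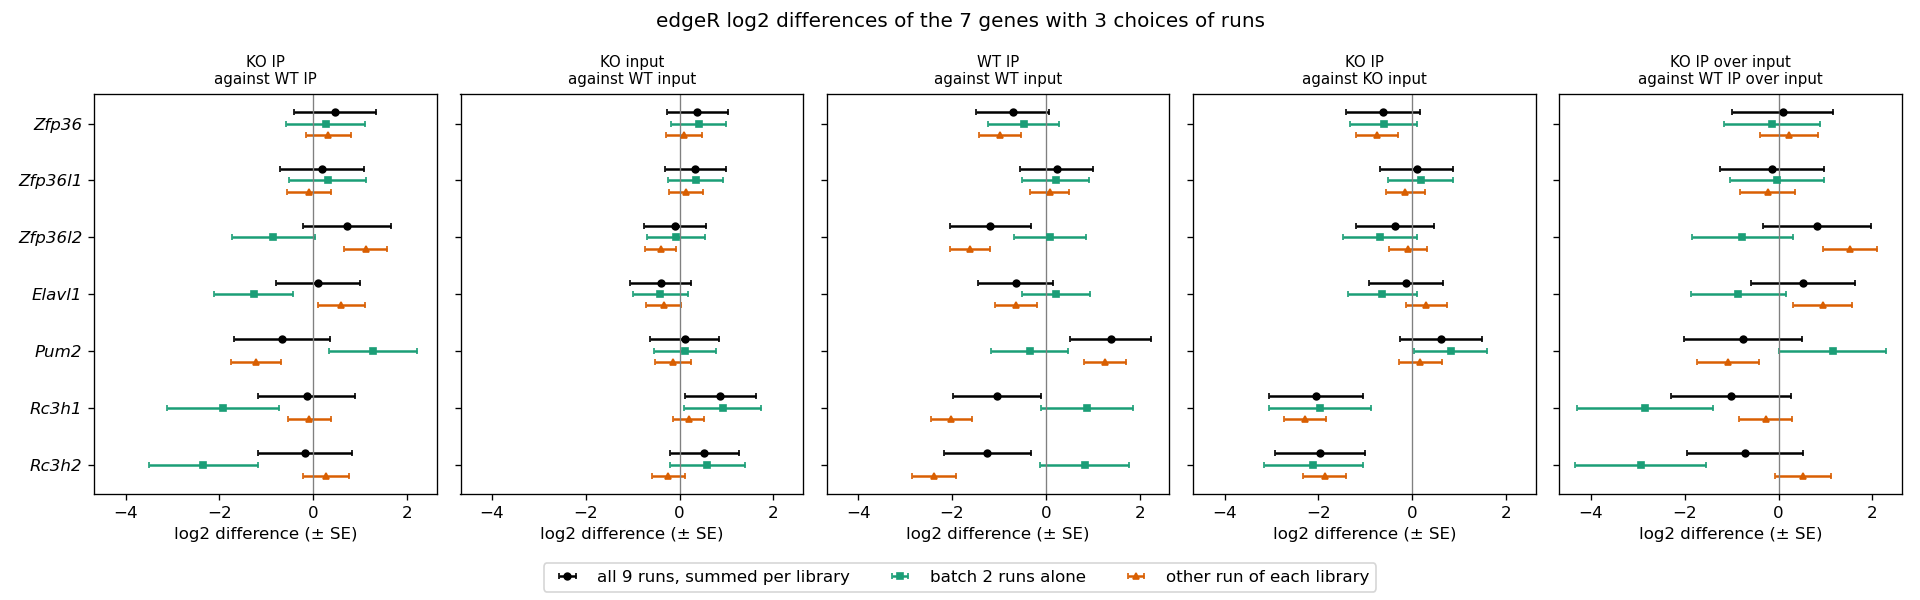
Log2 difference of each gene (x axis, ± SE from edgeR) in 5 comparisons (panels), with all 9 runs summed per library (circles), the batch 2 runs alone (squares) and the other run of each library (triangles). Rc3h1 in KO IP against WT IP moves between −0.14 with all runs and −1.92 in batch 2, and in WT IP against WT input between −1.04 and 0.88.

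Other genes of these pathways were read from 7 lists, of AU-rich element binding proteins, decay factors, regulators and targets. None of the members tested passed in any of the 5 comparisons. Each list is described by how many of its members lay above 0 and by its median log2 difference, beside all 11496 rows. Of all rows, 50.8% lay above 0 in KO IP against WT IP (median 0.01), 45.7% in KO input against WT input (−0.10), 47.3% in WT IP against WT input (−0.10), 54.5% in KO IP against KO input (0.20) and 58.5% in the difference of IP over input (0.27). The values of each list follow in that order of comparisons.

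Of the AU-rich element binding proteins 8 of 11 were tested, and 4, 3, 4, 4 and 4 lay above 0, with medians of 0.16, −0.20, 0.03, 0.05 and 0.29. Celf1, a binder of GU-rich elements grouped with them, had 821 and 776 CPM in KO IP batches 2 and 3, 1555 and 932 CPM in WT IP, 1429.5 and 1608 CPM in KO input, and 598 to 1768 CPM in WT input. Celf2, its T cell-expressed relative, had 2463 and 1476 CPM in KO IP batches 2 and 3, against 1481 and 2566 CPM in WT IP. Celf2, as Pum2, was highest in the KO IP batch 2 and WT IP batch 3 runs.

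Of Regnase family genes and Arid5a 3 of 6 were tested, and 1, 3, 2, 0 and 0 lay above 0, with medians of −0.23, 0.55, 0.36, −0.42 and −0.78. Arid5a, which encodes a stabiliser of cytokine mRNAs that opposes Regnase-1, had 245 and 195 CPM in KO IP, 508 and 138 CPM in WT IP, 579.8 and 515 CPM in KO input and 182 to 510.1 CPM in WT input. Like the Roquin genes it was higher in every Lars2-rich run than in any Lars2-poor one.

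All 12 decapping and 5′ to 3′ decay genes were tested, and 8, 6, 2, 3 and 7 lay above 0, with medians of 0.35, 0.0038, −1.05, −0.53 and 0.17. They include Ddx6, with 0 to 4 counts in any run, and Lsm14b, with 0 to 8. In the shallow Lars2-rich runs such counts come to as much as 12.6 CPM for Ddx6. The log2 values of these genes rest on few counts but enter the list as the others do. In the batch 2 runs alone 8 of these genes were tested, and the WT IP against WT input median was −0.08 in place of −1.05. Dcp2, the decapping enzyme, had 127 and 281 CPM in KO IP, 424 and 111 CPM in WT IP, 449.8 and 606 CPM in KO input and 208 to 633 CPM in WT input.

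Of the kinases and 14-3-3 adaptors that act on ZFP36 proteins 6 of 8 were tested, and 4, 0, 3, 5 and 6 lay above 0, with medians of 0.07, −0.54, 0.0035, 0.82 and 1.02. Ywhaz, a 14-3-3 protein, had 325 and 399 CPM in KO input D1 and RIP8, 307 CPM in WT input D1, and 573 and 1083 CPM in WT input RIP8 batches 1 and 2. WT input D1 was thus below both KO input runs, and the highest value was that of the Lars2-poor WT input run.

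Among mRNAs described elsewhere as ZFP36 family targets 10 of 14 were tested, and 7, 5, 5, 7 and 6 lay above 0, with medians of 0.38, −0.08, 0.07, 0.38 and 0.27. Pim1, a serine/threonine kinase gene, had 424 and 479.6 CPM in KO IP and 434 and 148 CPM in WT IP (log2 difference 1.14 ± 0.95, adjusted p = 0.999769 by edgeR). Among Roquin targets 9 of 10 were tested, and 5, 7, 3, 2 and 3 lay above 0, with medians of 0.31, 0.45, −0.40, −0.18 and −0.10. Ctla4, an inhibitory receptor, had 771 and 1446 CPM in KO IP, 903 and 306 CPM in WT IP, 1009.6 and 1794 CPM in KO input and 906 to 1931 CPM in WT input. All 4 Pumilio targets were tested, and 2, 3, 1, 1 and 0 lay above 0, with medians of −0.08, 0.35, −0.72, −0.85 and −0.14. In the batch 2 runs alone their WT IP against WT input median was 0.46 in place of −0.72. The KO IP against WT IP medians of the 7 lists changed there as well. In the order of the lists above they were −0.19, −0.50, −0.90, 0.91, 1.35, 0.08 and −0.92, beside 0.14 over all rows. Some of these medians are over fewer genes than in the main fit. There, 2 genes of the Regnase list, 8 decapping genes, 8 ZFP36 targets and 7 Roquin targets were tested in batch 2 alone. Cdkn1b, a cell cycle inhibitor, was at 1161 CPM or more in all 5 Lars2-rich runs and at most 613 CPM in the Lars2-poor ones. The rest of the genes named as the highest in their lists are given by their range over the 9 runs. Edc3, a decapping enhancer, ran from 145 to 570.3 CPM and N4bp1, a ribonuclease related to Regnase, from 79.1 to 158 CPM. Ywhag, a 14-3-3 protein, ran from 182 to 335 CPM, and the receptor gene Notch1 from 98.1 to 339 CPM. The transcription factor gene Irf4 ran from 109 to 648 CPM, and Atxn1 from 96.7 to 972 CPM.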

How the data were processed

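The authors deposited 1 table of raw read counts per 3′ UTR. Per the submitters' processing notes, Bowtie 1.2.3, Bowtie2 2.2.2, R 3.5.1, featureCounts and the mm10 build were used. The sources used here do not give what each tool did, the annotation, strandedness or the handling of multi-mapping reads. The members and lists were chosen with earlier results of these data known.

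The first 9 columns were used, since the rows of the last 11 do not belong to their names. No column lacked a sample. The Lars2 row was left out. Rows name transcripts without symbols or chromosomes, so symbols came from the RefSeq GRCm38 table by position: 3828 UTR starts were gene starts, 3823 of them on the chromosome of their stretch of rows, against 6 after a shift of 1000000 bases. Of 17730 candidates 16027 were kept, in the table's alphabetical order. Genes with no row assigned were not analysed here.

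Runs were summed per library. edgeR 4.0.16 (R 4.3.3; minimum count 10, TMM, glmQLFit and glmQLFTest, with limma 3.58.1) was fitted to all 6 libraries, which leaves 2 residual degrees of freedom (the inputs supply both) and a common dispersion of 0.281. The SE is the log2 value over the square root of F and restates the test. Benjamini-Hochberg adjustment ran over all rows, at 0.05. The scripts were tested on simulated data. Poisson, Wilson and exact ratio intervals are 95% and cover counting error only.

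Named besides the 7 genes were the 2 rows most correlated with each in log2(CPM + 1), among rows with at least 10 counts in at least 5 runs, and, as no list member passed, the 2 of highest mean CPM in each list. A further list is not reported here. DESeq2 1.42.0, no TMM factors, no filter, the Lars2 row kept, the replicate block, batch 2 alone and leaving out each library were alternatives. The split of runs at a Lars2 share of 30%, the other run of each library, the Lars2-rich runs alone and the run ratios under other scalings were chosen after seeing the data.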

Additional observations from a re-analysis of the deposited data

How the results depend on the processing

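No gene of the 7 passed with TMM factors left out, with no filter or with the Lars2 row kept. None passed with the replicate block or in batch 2 alone. By DESeq2 none passed either, but it did not give every gene an adjusted p. Rows called were 0 in every comparison of the edgeR fit; where this moved, the counts for KO input against WT input, WT IP against WT input and KO IP against KO input were 24, 43 and 196 by DESeq2, 84, 94 and 594 with no filter, and 2, 538 and 1979 with the replicate block. The block rests on shared experiment names alone, with 2 pairs (the D1 minus RIP8 differences of KO input and WT input correlated at 0.20 over 11496 rows). With the other run of each library, 532 rows were called in KO IP against WT IP, 3775 in WT IP against WT input and 1770 in KO IP against KO input. Leaving out 1 library gave 0 to 86 rows for KO IP against WT IP, 0 to 2363 for KO input against WT input, 0 to 2639 for WT IP against WT input, 0 to 2976 for KO IP against KO input and 0 to 1175 for the difference of IP over input. Leaving out either WT input library lowered the common dispersion to 0.0738 or 0.0792 from 1 residual degree of freedom.

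Signs turned as follows. In KO IP against WT IP, Zfp36l1 had −0.087 and Rc3h2 0.28 with the other run, Zfp36l2 −0.85, Elavl1 −1.27 and Pum2 1.28 in batch 2, Elavl1 −0.055 by DESeq2 and −0.059 with no filter, and Rc3h1 0.18 and Rc3h2 0.14 without factors. In KO input against WT input, Pum2 had −0.14 and Rc3h2 −0.24 with the other run, and −0.14 and −0.25 in the Lars2-rich runs. In WT IP against WT input, Zfp36l1 had −0.30 without factors. There Zfp36l2 had 0.088, Elavl1 0.21, Pum2 −0.34, Rc3h1 0.88 and Rc3h2 0.83 in batch 2, and Elavl1 0.29, Pum2 −0.60, Rc3h1 0.16 and Rc3h2 0.0022 in the Lars2-rich runs. In KO IP against KO input, Zfp36l1 had −0.18 without factors and −0.14 with the other run, and Elavl1 0.0075 with Lars2 kept and 0.30 with the other run. In the difference of IP over input, Zfp36 had −0.078 by DESeq2, −0.016 with no filter and −0.14 in batch 2, Zfp36l1 0.12 without factors, Zfp36l2 −0.78, Elavl1 −0.86 and Pum2 1.16 in batch 2, and Rc3h2 0.52 with the other run. Leaving out 1 library, Elavl1 ran from −0.028 to 0.12 in KO IP against WT IP and from −0.29 to 0.051 in KO IP against KO input. In KO input against WT input Zfp36l2 ran from −0.37 to 0.19, Pum2 from −0.44 to 0.49 and Rc3h2 from −0.13 to 1.56. Rc3h1 in WT IP against WT input ran from −1.82 to 0.23, and Zfp36 in the difference from −0.21 to 0.28. Beyond the turns that come with the choice of runs or libraries, the cause was not tested.

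With the Lars2 row kept and with TMM scaling, the highest run exceeded the lowest by 2.24-fold and 2.10-fold for Zfp36, 2.08-fold and 1.54-fold for Zfp36l1, 3.21-fold and 3.07-fold for Zfp36l2, 2.12-fold and 2.21-fold for Elavl1, 4.53-fold and 4.08-fold for Pum2, 4.60-fold and 4.87-fold for Rc3h1, and 5.75-fold and 5.51-fold for Rc3h2. Without TMM factors the median of all rows was 0.34 for KO IP against WT IP (0.01 with them), −0.61 for WT IP against WT input (−0.10) and 0.51 for the difference (0.27). The 5 Lars2-rich runs held 17 to 227 counts of each gene, which limits their precision.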
